A study of Mus musculus with 6 samples.

Results

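The insulin-like growth factor (IGF) axis was described through 8 genes, namely the ligand Igf1, the receptor Igf1r and the binding proteins Igfbp2, Igfbp3, Igfbp4, Igfbp5, Igfbp6 and Igfbp7. They were set by a list of names that holds no limit on their values, although earlier results of these data were known by then, and all 8 were found among the 53726 genes of the RNA-seq table. Achilles tendons of 4-week-old mice had been sequenced as total RNA and as small RNA, with 1 library per genotype in each assay. Control mice were Dicer f/f and carried no Cre. ScxHt mice were ScxCre/+ Knock In with Dicer +/+, and Dicer cKO mice were ScxCre/+ Knock In with Dicer f/f. Cre was inserted into Scx, the gene of a tendon transcription factor, so the ScxHt and Dicer cKO mice shared the loss of 1 Scx allele, and Cre was driven by the Scx promoter. DICER, the enzyme that cuts miRNA precursors into mature miRNAs, could be deleted by Cre only in the Dicer cKO mice, in cells that use or have used this promoter. The comparisons asked how genotype went together with the level of each transcript. Dicer cKO/Control and Dicer cKO/ScxHt, the latter with Cre on both sides, concerned the Dicer deletion. ScxHt/Control concerned the ScxCre allele without that deletion. It did not isolate this allele, because the Control mice carried floxed Dicer and the ScxHt mice did not.

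IGF1 is a secreted growth factor made by the liver and locally by connective tissue cells, and in tendon it is known to stimulate fibroblast division and collagen synthesis. It binds the IGF1 receptor, a tyrosine kinase that signals through the IRS adaptors to PI3K, AKT and mTOR. Binding proteins hold IGFs in the circulation and in the extracellular matrix, where they limit or prolong access to the receptor until proteases cut them and free the ligand.

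With 1 library per genotype there were no replicates, so no test across mice, no SD and no p-value could be given. Each ratio below is the ratio of read counts after division by DESeq2 size factors, and the range behind it is a 95% Clopper-Pearson interval that covers counting error only, not the differences between mice. A gene was called higher when its ratio exceeded about 1.7 and lower when it was under 0.60, if the mean normalized count of both libraries (baseMean) was above 50. RNA-seq counts summed to 16244232 in Control tendon, 15769301 in ScxHt and 14959399 in Dicer cKO tendon, while the small RNA-seq libraries held between 8435829 and 10986541 counts. Whole-gene Dicer1 reads, which also include exons that Cre does not remove, were 1919, 2025 and 1621 in the same order. Scx reads were 1055, 686 and 371. Tnmd, the tenomodulin gene that defines tendon fibroblasts, was read in every library at an RPKM (reads scaled by gene length and library total) of 481.7, 723.3 and 477.7. Summed over 10 tendon fibroblast markers, however, the share of all counts was 13.7% in Control tendon, 12.2% in ScxHt and 7.97% (95% interval 7.95 to 7.98) in Dicer cKO tendon. Col1a1 and Col1a2 made up most of this sum, at 7.76% and 4.36% of counts in Control tendon and 5.87% and 4.18% in ScxHt. In ScxHt/Control 7 of the 10 markers had a ratio above 1 and 3 below, with a median of 1.19. The lower ScxHt sum was thus not shared by most markers. In Dicer cKO/Control all 10 were below 1, at a median of 0.558. In bulk tendon RNA, fewer cells of a type and less RNA per cell cannot be told apart.

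Per length of the transcript, the binding proteins were among the strongly read genes of the tendon. In the Control library the RPKM order was Igfbp5 (192.7), Igfbp6 (135.2), Igfbp4 (131.0), Igfbp7 (101.6), Igf1 (49.6), Igfbp3 (27.4), Igf1r (6.17) and Igfbp2 (1.63). Igfbp5 stood at rank 127 of all genes by RPKM and Igfbp2 at rank 13535. The order was the same in the ScxHt library, and in the Dicer cKO library Igfbp4 came first (105.4), followed by Igfbp5 (83.1), Igfbp7 (80.8) and Igfbp6 (74.8). No interval was computed for the close values of Igfbp5 and Igfbp7 in the Dicer cKO library, so their order there is not settled. Igfbp4 and Igfbp6 were neighbours in the Control order that could not be told apart by their reads, with an Igfbp4/Igfbp6 ratio of RPKM of 0.969 (0.926 to 1.01). The liver-type binding protein Igfbp1 and the related Igfbpl1 had 0 reads in all 3 libraries, which allows up to 3 reads in each.

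**Figure D1:**
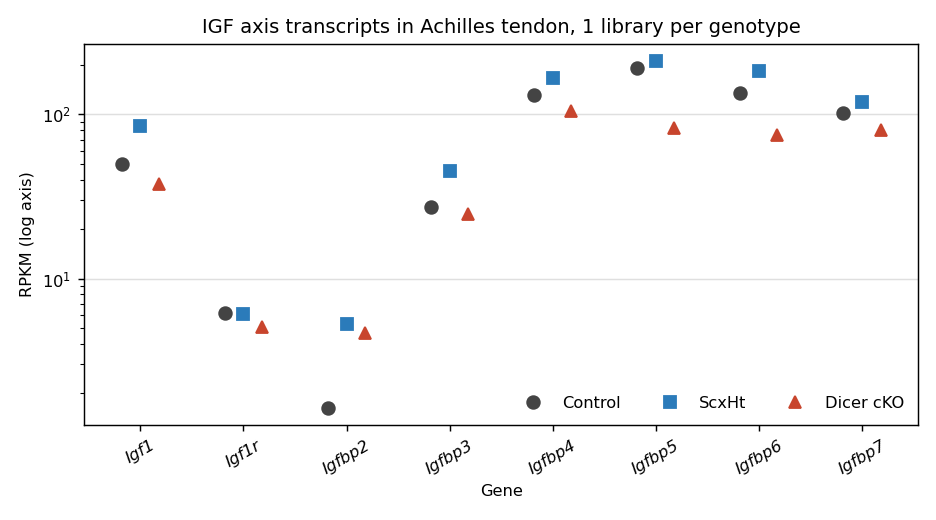
RPKM (log axis) of the 8 genes in the Control (circle), ScxHt (square) and Dicer cKO (triangle) libraries, 1 point per library. The Dicer cKO point is the lowest of the 3 for 7 genes, while for Igfbp2 the Control point (1.63) is the lowest.

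Where each gene lies, and which of its letters pair with a miRNA seed, was read from GENCODE vM21 on GRCm38. Igf1 spans chr10:87858265-87937042 on the plus strand and Igf1r chr7:67952827-68233668 on the plus strand. Igfbp2 (chr1:72824503-72852474, plus strand) and Igfbp5 (chr1:72857932-72874884, minus strand) lie end to end with 5457 bases and no annotated gene between them. Igfbp3 lies at chr11:7206086-7213923 (minus), Igfbp4 at chr11:99041244-99054392 (plus), Igfbp6 at chr15:102144362-102149511 (plus) and Igfbp7 at chr5:77349240-77408041 (minus). Polr2b and Gm34648 lie opposite Igfbp7 and Igf1os lies opposite Igf1. Whether the counting used strand is not given in the sources used here, so reads from the overlapping stretches cannot be told apart. Igf1os had only 13, 9 and 18 reads, and Polr2b had 890, 1199 and 922.

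The longest annotated 3' UTRs fell into long and short ones. They measured 6308 bases in Igf1, 7267 in Igf1r, 4445 in Igfbp5, 2813 in Igfbp4 and 1435 in Igfbp3, but only 312 in Igfbp2, 240 in Igfbp7 and 209 in Igfbp6, against a median of 1312 over 10949 genes. Mature miRNAs from RefSeq (GRCm38.p6), written 5' to 3' with the seed (bases 2 to 8) in capitals, are shown for the families that matched Igf1 or Igf1r with 8 letters.
let-7c-5p: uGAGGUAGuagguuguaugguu
miR-99a-5p: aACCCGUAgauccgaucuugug
miR-100-5p: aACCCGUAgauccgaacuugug
miR-206-3p: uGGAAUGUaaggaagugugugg
miR-29a-3p: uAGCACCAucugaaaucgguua
miR-135a-5p: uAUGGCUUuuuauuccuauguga
miR-99a-5p and miR-100-5p share their seed, as do the let-7 family members.

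The sites below are stretches of the coding strand with the letters that pair with the seed in capitals, and each is exonic and in the 3' UTR. An 8-letter match is the complement of bases 2 to 8 followed by A, and a 7-letter match lacks that A.
Igf1, miR-206, chr10:87930878-87930907, plus strand: tatacaagtaaACATTCCAacatcgtcttt
Igf1, miR-29, chr10:87931660-87931689, plus strand: ttttagtacaaTGGTGCTAttttgtagttt
Igf1, miR-135a, chr10:87935832-87935861, plus strand: cattaaataacAAGCCATAtctggttcaat
Igf1r, let-7, chr7:68229114-68229143, plus strand: caaacatttatCTACCTCActcttgttttt
Igf1r, miR-99 and miR-100, chr7:68232096-68232125, plus strand: gtccagtagatTACGGGTAgtcgttgacga
Igfbp5, let-7, chr1:72859669-72859697, minus strand: cccaggtcagcCTACCTCccccaaacttg
The Igfbp5 site has 7 matching letters and the others have 8. The list of matches given here is not complete. Igf1 holds a further 8-letter miR-29 match and a 7-letter miR-135a match, and Igf1r a further 7-letter let-7 match. Igf1r has 7-letter matches to miR-206 and miR-511-3p. In Igfbp4 there were 7-letter matches only, for miR-29 (at 2 places) and miR-140-3p. Igfbp2, Igfbp3, Igfbp6 and Igfbp7 held no match to any of the 8 seeds searched, the eighth being that of miR-1247-5p. Among all genes' 3' UTRs on the coding strand, an 8-letter match was present for let-7 (CTACCTCA) in 3.83%, for miR-99 and miR-100 (TACGGGTA) in 0.347%, for miR-206 (ACATTCCA) in 4.74%, for miR-29 (TGGTGCTA) in 3.64% and for miR-135a (AAGCCATA) in 3.77%. With 7-letter matches counted as well, the shares were 10.9% for let-7, 1.55% for miR-99 and miR-100, 12.1% for miR-206, 16.9% for miR-29, 15.7% for miR-135a, 20.4% for miR-140-3p and 13.8% for miR-511-3p. The seeds of miR-1a-3p, miR-133a-3p, miR-140-5p, miR-143-3p, miR-145a-5p and miR-511-5p were not searched. A match is a description of letters, and a long 3' UTR has more places for one.

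Igf1, the ligand, was highest in the ScxHt and lowest in the Dicer cKO library. It was counted 7984 times in Control tendon, 13344 times in ScxHt and 5579 times in Dicer cKO tendon, which is an RPKM of 49.6, 85.4 and 37.7. The Dicer cKO/Control ratio was 0.726 (0.701 to 0.751), inside the limits, and 11.3% of all genes had a lower ratio. ScxHt/Control was 1.60 (1.56 to 1.65), just under the upper limit, and it passed the limit at 1.72 when libraries were scaled by total counts. Between the Cre-carrying libraries the difference was larger. Dicer cKO/ScxHt was 0.461 (0.446 to 0.475), and only 1.58% of all genes had a lower ratio. The size of the Igf1 difference in the Dicer cKO library therefore depended on which library it was set against.

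Markers of macrophages, cells that can make IGF1, moved in the same directions as Igf1. All 8 listed macrophage markers were above a ratio of 1 in ScxHt/Control, with 7 counted as higher and a median ratio of 1.71. In Dicer cKO/ScxHt all 8 were counted as lower, with a median ratio of 0.478. Summed, they held 0.0203% of counts (0.0196 to 0.0210) in Control tendon, 0.0378% (0.0368 to 0.0388) in ScxHt and 0.0163% (0.0156 to 0.0169) in Dicer cKO tendon, and none was at 0. Csf1r, the receptor of macrophage colony-stimulating factor, was read 574, 1113 and 416 times. The 10 tendon fibroblast markers had a median ratio of 1.19 in ScxHt/Control and 0.555 in Dicer cKO/ScxHt. The part of either cell type in the Igf1 result was not tested.

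Igf1r, the receptor, varied less. Its reads were 1683 in Control tendon, 1602 in ScxHt and 1277 in Dicer cKO tendon, at an RPKM of 6.17, 6.05 and 5.08. Dicer cKO/Control was 0.788 (0.732 to 0.848), ScxHt/Control was 0.912 (0.851 to 0.977), and the Cre-carrying libraries differed by a ratio of 0.878 (0.816 to 0.946). All 3 intervals lay below 1 and all 3 ratios lay inside the limits. The ligand differed more than its receptor, and the Igf1/Igf1r ratio of RPKM was 8.04 (7.63 to 8.48) in Control tendon, 14.1 (13.4 to 14.9) in ScxHt and 7.41 (6.97 to 7.88) in Dicer cKO tendon. The Control and Dicer cKO intervals of this ratio overlapped.

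**Figure D2:**
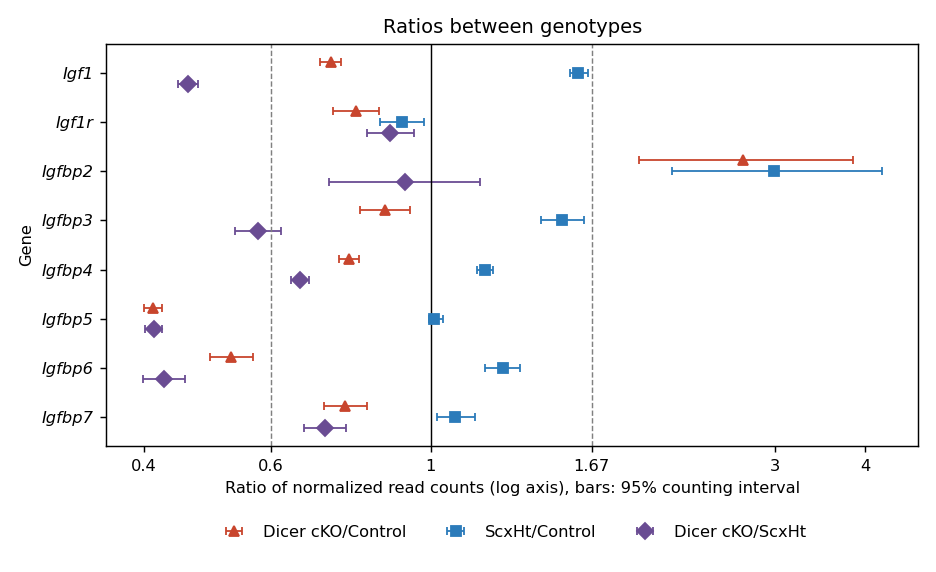
Ratio of normalized read counts (log axis) for each gene in Dicer cKO/Control (triangles), ScxHt/Control (squares) and Dicer cKO/ScxHt (diamonds), with 95% counting intervals as bars, the limits of 0.60 and about 1.7 as dashed lines and a ratio of 1 as a solid line. Igfbp5 and Igfbp6 lie left of 0.60 in both comparisons of the Dicer cKO library, and Igfbp2 alone lies right of the upper limit.

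Igfbp5, a binding protein that attaches to the extracellular matrix, had the lowest Dicer cKO/Control ratio of the 8 genes. Its 18802 reads in Control and 19915 in ScxHt tendon stood against 7465 in Dicer cKO tendon. The Control and ScxHt libraries were close, at a ScxHt/Control ratio of 1.01 (0.994 to 1.04). The Dicer cKO/Control ratio was 0.412 (0.401 to 0.424), with 0.642% of all genes lower, and Dicer cKO/ScxHt was 0.413 (0.402 to 0.424), with 0.981% lower. By RPKM, Igfbp5 went from rank 127 in the Control to rank 293 in the Dicer cKO library.

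Igfbp6, which binds IGF2 in preference to IGF1, showed a similar order. Its reads numbered 2442 in Control tendon, 3212 in ScxHt and 1244 in Dicer cKO tendon. Dicer cKO/Control was 0.529 (0.494 to 0.567), ScxHt/Control 1.26 (1.19 to 1.33) and Dicer cKO/ScxHt 0.427 (0.399 to 0.456). Igfbp5 and Igfbp6 were the only members counted as lower in Dicer cKO/Control, 2 of 8, where 4.19% of all 13404 genes above the minimum baseMean were lower. Tendon fibroblast markers moved with them, since 6 of 10 were counted as lower in Dicer cKO/Control and all 10 had a ratio below 1, at a median of 0.558. Of the 8 cartilage and bone markers, 6 were above the minimum and 4 of these were lower, with a median ratio of 0.518, and the bone gene Bglap was at 0 in every library. Summed, the cartilage and bone markers held 0.158% of counts (0.156 to 0.160) in Control tendon, 0.219% (0.216 to 0.221) in ScxHt and 0.0800% (0.0786 to 0.0814) in Dicer cKO tendon. Comp alone made up most of this sum, at 0.103%, 0.146% and 0.0496%. The 2 markers that stayed within the limits in Dicer cKO/Control were Col2a1 at 0.850 (0.773 to 0.934) and Runx2 at 1.09 (0.822 to 1.45). Their part in the Igfbp5 and Igfbp6 results was not tested.

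Igfbp3, the main IGF carrier of serum, followed Igf1 in its order. It was read 1392 times in Control tendon, 2214 times in ScxHt and 1157 times in Dicer cKO tendon. Its ratio was 0.863 (0.798 to 0.934) in Dicer cKO/Control and 1.52 (1.42 to 1.63) in ScxHt/Control, and it was 0.576 (0.536 to 0.619) in Dicer cKO/ScxHt. It passed the lower limit in the last comparison, although the interval reached above it.

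Igfbp4, which keeps IGF1 from its receptor until the protease PAPPA cuts it, had 9395 reads in Control tendon, 11657 in ScxHt and 6963 in Dicer cKO tendon. Its ratios stayed inside the limits at 0.770 (0.746 to 0.794), 1.19 (1.16 to 1.22) and 0.658 (0.639 to 0.678), first for Dicer cKO and then for ScxHt against Control, and last for Dicer cKO against ScxHt. Igfbp7, a related protein with low affinity for IGFs, had 1995, 2259 and 1462 reads. In the same order of comparisons its ratios were 0.761 (0.711 to 0.815), 1.08 (1.02 to 1.15) and 0.713 (0.667 to 0.762). For both genes the Dicer cKO library was the lowest and no limit was passed.

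Igfbp2, which also binds integrins through an RGD motif, went the other way and was the only member counted as higher. Its reads were 49 in Control tendon, 153 in ScxHt and 128 in Dicer cKO tendon, so it was the least read member in each. ScxHt/Control was 2.99 (2.16 to 4.21), and 99.9% of all genes had a lower ratio. Dicer cKO/Control was 2.71 (1.94 to 3.85). Dicer cKO/ScxHt was 0.922 (0.723 to 1.17), an interval that held 1 and reached from lower to higher values. Both Cre-carrying libraries were thus above the Control library and were not told apart from each other at this depth. The 49 Control reads set the width of both intervals against Control. Its Control level of 48.8 normalized reads was below the minimum. The baseMeans of 89.3 in Dicer cKO/Control and 99.9 in ScxHt/Control passed it through the Cre-carrying libraries, in which Igfbp2 was high. Of the 10 skeletal muscle fibre markers, 3 were higher and 2 lower in ScxHt/Control with a median ratio of 0.902, and 8 were higher in Dicer cKO/Control with a median ratio of 2.06. Mitosis markers had a median ratio of 1.77 in ScxHt/Control, 1.96 in Dicer cKO/Control and 1.05 in Dicer cKO/ScxHt. The part of muscle fibres or dividing cells in the Igfbp2 result was not tested. Its neighbour on chromosome 1, Igfbp5, had the opposite order between the Control and Dicer cKO libraries.

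Counted together, 1 member was higher, 2 were lower and 5 were within the limits in Dicer cKO/Control, where 3.87% of all genes were higher. The median log2 ratio of the 8 was -0.39 against -0.03 over all genes, and the interval lay below 1 for 7 of 8. In ScxHt/Control 1 member was higher and 0 were lower, where 3.03% of all genes were higher and 4.71% lower, and the median was 0.29 against 0.02, with 6 of 8 intervals above 1. In Dicer cKO/ScxHt 0 members were higher and 4 were lower (Igf1, Igfbp3, Igfbp5 and Igfbp6), where 7.68% of all genes were higher and 5.68% lower. The median of that comparison was -0.70 against -0.03, and 7 of 8 intervals lay below 1. The share of all genes with an interval on 1 side of 1 was not computed. At high counts small ratios are enough for this, such as Igfbp7 in ScxHt/Control at 1.08 (1.02 to 1.15). Any pair of these comparisons shares a library, so their values are not independent.

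The make-up of the binding protein pool differed between the libraries as well as its size. The summed RPKM of Igfbp2 to Igfbp7 was 589.5 in Control tendon, 729.5 in ScxHt and 373.5 in Dicer cKO tendon. Igfbp5 held 32.7% of that sum in Control tendon, 28.8% in ScxHt and 22.2% in Dicer cKO tendon. Igfbp4 held 22.2%, 22.9% and 28.2%, and Igfbp7 17.2%, 16.2% and 21.6%, so both were larger parts of a smaller pool in the Dicer cKO library. Igfbp6 held 22.9%, 25.1% and 20.0%. Igfbp3 held 4.64%, 6.15% and 6.62% and Igfbp2 0.277%, 0.720% and 1.24%. The Igfbp5/Igfbp4 ratio of RPKM was 1.47 (1.44 to 1.51) in Control tendon, 1.26 (1.23 to 1.29) in ScxHt and 0.788 (0.763 to 0.815) in Dicer cKO tendon, with no overlap of the intervals. Per unit of Igf1 RPKM, the pool was 11.9 in Control tendon, 8.54 in ScxHt and 9.92 in Dicer cKO tendon.

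**Figure D3:**
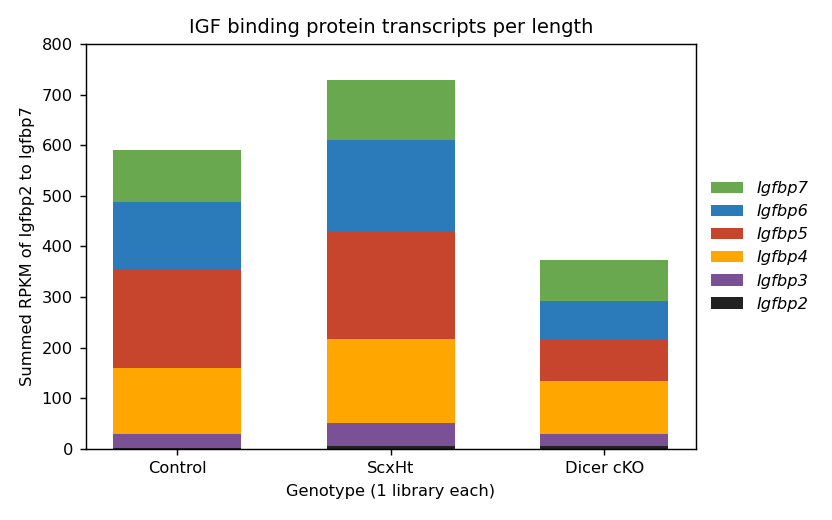
Summed RPKM of Igfbp2 to Igfbp7, stacked by gene, in the Control, ScxHt and Dicer cKO libraries (1 bar per library, no error bar because there are no replicates). The Dicer cKO bar ends at 373.5, below the Control bar at 589.5 and the ScxHt bar at 729.5, and its Igfbp5 block is the most reduced.

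The other genes of the pathway were taken from 8 lists of 51 genes without the members. In Dicer cKO/Control 43 of the 51 were above the minimum, of which 0 were higher and 3 lower, with a median log2 ratio of -0.12. Over all genes 3.87% were higher and 4.19% lower there, with a median of -0.03. In ScxHt/Control 1 of 43 was higher and 3 were lower, with a median of -0.13. Over all genes 3.03% were higher and 4.71% lower, with a median of 0.02. In Dicer cKO/ScxHt 2 of 42 were higher and 3 lower, with a median of 0.03. There 7.68% of all genes were higher and 5.68% lower, with a median of -0.03. The pathway counts thus lay near the shares over all genes.

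Igf2, the ligand best known from fetal growth, had another order than Igf1. Its reads were 704 in Control tendon, 639 in ScxHt and 1113 in Dicer cKO tendon. Dicer cKO/Control was 1.64 (1.49 to 1.81), just inside the limit, ScxHt/Control was 0.869 (0.780 to 0.969), and Dicer cKO/ScxHt was 1.92 (1.74 to 2.12) and counted as higher. The Igf1/Igf2 ratio of RPKM was 6.56 (6.07 to 7.09) in Control tendon, 12.1 (11.1 to 13.1) in ScxHt and 2.90 (2.71 to 3.09) in Dicer cKO tendon. Igf2r, the receptor that clears IGF2, and the insulin receptor gene Insr stayed within the limits in all 3 comparisons. Igfals, which stabilises the serum complex of IGF and Igfbp3, had 35, 35 and 29 reads and did not reach the minimum.

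Among the proteases that cut binding proteins and their inhibitors, Pappa2, whose product cuts IGFBP3 and IGFBP5, stood out in the ScxHt library. Pappa2 reads were 68 in Control tendon, 202 in ScxHt and 73 in Dicer cKO tendon. ScxHt/Control was 2.85 (2.15 to 3.80) and Dicer cKO/ScxHt was 0.398 (0.300 to 0.523), while Dicer cKO/Control was 1.11 (0.790 to 1.57). Stc1, a stanniocalcin that inhibits PAPPA, was lower in both Cre-carrying libraries, with 81, 43 and 25 reads. Dicer cKO/Control of Stc1 was 0.320 (0.196 to 0.507) and ScxHt/Control was 0.508 (0.343 to 0.745). Its baseMeans of 52.5 and 62.4 in these comparisons were near the minimum and passed it through the Control library, in which Stc1 was high. Stc2, the other stanniocalcin, had 93, 57 and 76 reads and was lower only in ScxHt/Control, at 0.587 (0.415 to 0.825), with an interval that reached above 0.60. Pappa and the serine protease gene Htra1 stayed within the limits.

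Inside the cell, few genes between the receptor and mTOR passed a limit. None of the 7 receptor adaptors or of the 8 mTOR genes above the minimum passed a limit in any comparison. In lists this short that is near the share over all genes, from 3.03% to 7.68% per limit and comparison. Of 14 PI3K and AKT genes only Pik3cb, a catalytic subunit of PI3K, did so, in Dicer cKO/ScxHt at 2.04 (1.7 to 2.5), with 229, 154 and 285 reads. Foxo1 and Foxo3, transcription factors that AKT inhibits, came closest to the lower limit in that list in Dicer cKO/Control, at 0.687 (0.646 to 0.730) and 0.676 (0.636 to 0.717). Of the feedback inhibitors of cytokine and growth hormone receptors, Socs2 and Socs3 passed a limit, and Cish had too few reads in every comparison. Socs2 had 328, 313 and 157 reads and was lower in Dicer cKO/Control at 0.497 (0.408 to 0.603) and in Dicer cKO/ScxHt at 0.553 (0.453 to 0.672). Socs3 had 588, 242 and 130 reads and was lower in all 3 comparisons, at 0.230 (0.188 to 0.278) in Dicer cKO/Control, 0.394 (0.338 to 0.459) in ScxHt/Control and 0.592 (0.475 to 0.736) in Dicer cKO/ScxHt. The growth hormone receptor gene Ghr had 4073, 4716 and 3767 reads and stayed within the limits.

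**Figure D4:**
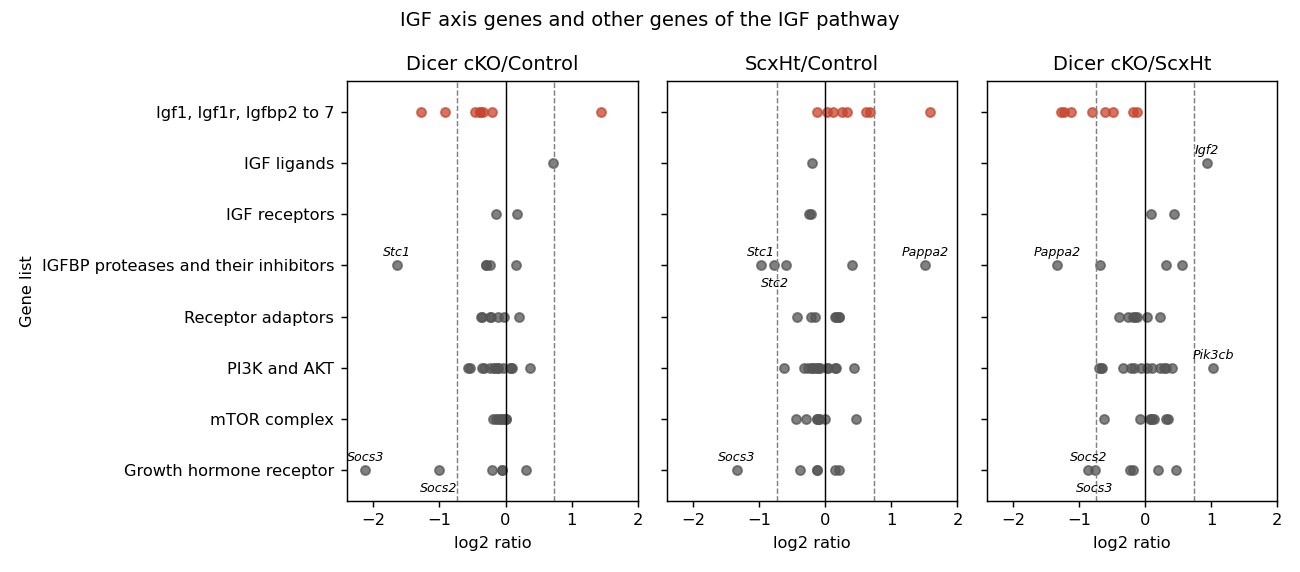
log2 ratio of each gene above the minimum baseMean in the 3 comparisons (panels), for the 8 IGF axis genes (red) and the other pathway genes by list (grey), 1 point per gene, with dashed lines at the limits and names for the other pathway genes past a limit. The red points lie mostly left of 0 in both panels of the Dicer cKO library, and the adaptor and mTOR points all lie between the dashed lines.

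Markers of other cell types also differed between the libraries. Skeletal muscle fibre markers held 0.900% of counts (0.895 to 0.905) in Control tendon, 0.865% (0.861 to 0.870) in ScxHt and 1.86% (1.85 to 1.86) in Dicer cKO tendon, with 8 of 10 higher in Dicer cKO/ScxHt at a median ratio of 2.26. Schwann cell markers held 0.0232% (0.0225 to 0.0240), 0.0303% (0.0295 to 0.0312) and 0.0715% (0.0701 to 0.0729), and 5 of the 6 above the minimum in Dicer cKO/Control were higher. Erythroid markers were higher in 4 of 4. None of the muscle, Schwann cell or erythroid markers was at 0 in any library. Median Dicer cKO/Control ratios were 1.10 for endothelium, 1.31 for smooth muscle and pericytes, 1.08 for adipocytes, 0.616 for tendon sheath and progenitors and 1.96 for mitosis. The mitosis median was also above 1 in ScxHt/Control, at 1.77. The part of these cells in any member's ratio was not tested.

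The genes whose pattern over the 3 libraries was nearest to each member were found by the distance between their log2 ratios Dicer cKO/Control and ScxHt/Control, among 2626 genes with a mean normalized count of at least 1000. For Igf1 these were Igsf10 (distance 0.00767) and Kera (0.0316), the keratocan gene, with Kera at 5539, 9065 and 3894 reads. Igfbp5 was nearest to Chad (0.0458), the gene of the matrix protein chondroadherin, which had 16553, 17282 and 6389 reads, and to Gas1 (0.122). Igfbp6 was nearest to Cd248 (0.00935) and to Dcn (0.0471), the decorin gene. For Igfbp2 the nearest were Mybpc2 (0.456) and Pvalb (0.513), both genes of fast muscle fibres, and these distances were the largest of all members. With only 49 reads in Control tendon, however, the ratios of Igfbp2 were uncertain. Its counting intervals were 1.94 to 3.85 in Dicer cKO/Control and 2.16 to 4.21 in ScxHt/Control. The distances therefore do not show that no strongly read gene followed it. Igfbp3 was nearest to Ostc (0.0263) and P3h1 (0.0331), Igfbp4 to H13 (0.00911) and Slc38a10 (0.0122), Igfbp7 to Rora (0.0116) and Notch2 (0.0139), and Igf1r to Inpp4a (0.0147) and Rac1 (0.0195). With 1 library per genotype these distances are a description over 3 libraries.

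The miRNAs whose sites were shown above differed between the same tendon samples in small RNA-seq, where features needed a baseMean above 15. miR-99a and miR-100, whose seed pairs with Igf1r, were lower in both Cre-carrying libraries. The Mir99a locus had 23215 reads in Control tendon, 10685 in ScxHt and 9254 in Dicer cKO tendon, with ratios to Control of 0.519 (0.507 to 0.531) in ScxHt and 0.457 (0.446 to 0.468) in Dicer cKO. Mir100 had 5298, 2739 and 2503 reads, with ratios of 0.582 (0.556 to 0.610) and 0.541 (0.516 to 0.568). Mir99b, whose product has the same seed, had 15179, 13122 and 11347 reads and stayed within the limits at 0.974 (0.951 to 0.997) and 0.857 (0.836 to 0.878). Igf1r was at 0.912 in ScxHt/Control and 0.788 in Dicer cKO/Control, and the part of these miRNAs in its level was not tested.

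miR-206, a miRNA of skeletal muscle whose seed pairs with Igf1, was read 310922 times in Control tendon, 134734 times in ScxHt and 408434 times in Dicer cKO tendon. Its ratio to Control was 0.488 (0.485 to 0.491) in ScxHt and 1.51 (1.50 to 1.51) in Dicer cKO, the reverse of the order of Igf1. The part of miR-206 in the Igf1 level was not tested. Mir1a-1, another skeletal muscle miRNA, had 174274, 98934 and 266160 reads. The muscle fibre marker Acta1 stood in the same order as both miRNAs, with 85448, 51113 and 130878 reads, and the part of muscle in this order was not tested. The locus Mirlet7c-1 had 871310 reads in Control tendon, 701702 in ScxHt and 587084 in Dicer cKO tendon, with ratios to Control of 0.907 (0.904 to 0.910) and 0.772 (0.770 to 0.775). Mirlet7i was at 1.02 (1.01 to 1.03) and 0.658 (0.652 to 0.664), and Mirlet7d was above 1 in both, at 1.35 (1.33 to 1.37) and 1.08 (1.06 to 1.10), so the family did not move as 1 group. Mir29a had ratios of 0.839 (0.818 to 0.861) and 0.632 (0.614 to 0.650). The other miR-29 loci were closer to 1 in Dicer cKO/Control, with Mir29b-1 at 1.22 (1.07 to 1.39) and 0.956 (0.831 to 1.10) and Mir29c at 0.964 (0.903 to 1.03) and 0.825 (0.771 to 0.883). Mir135a-1 had only 38, 13 and 16 reads, with wide intervals, from 0.251 to 0.886 in Dicer cKO/Control and from 0.188 to 0.740 in ScxHt/Control. The locus Mir511, whose 3p miRNA has a 7-letter seed match in Igf1r, had 34, 27 and 3 reads. Its Dicer cKO/Control ratio of 0.101 (0.0199 to 0.322) was the lowest of these loci. The baseMean of 17.5 in that comparison was near the minimum of 15 and passed it through the Control library, in which Mir511 was high. Reads were counted per locus, so those of Mir511 cannot be assigned to its 3p miRNA. The seed of the other mature miRNA of this locus was not searched. Of the other let-7 loci, Mirlet7e was at 0.984 (0.971 to 0.997) and Mirlet7g at 1.03 (1.01 to 1.06) in Dicer cKO/Control. Igfbp5, with its let-7 match, was at 1.01 in ScxHt/Control and 0.412 in Dicer cKO/Control. The part of let-7 in the Igfbp5 level was not tested.

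**Figure D5:**
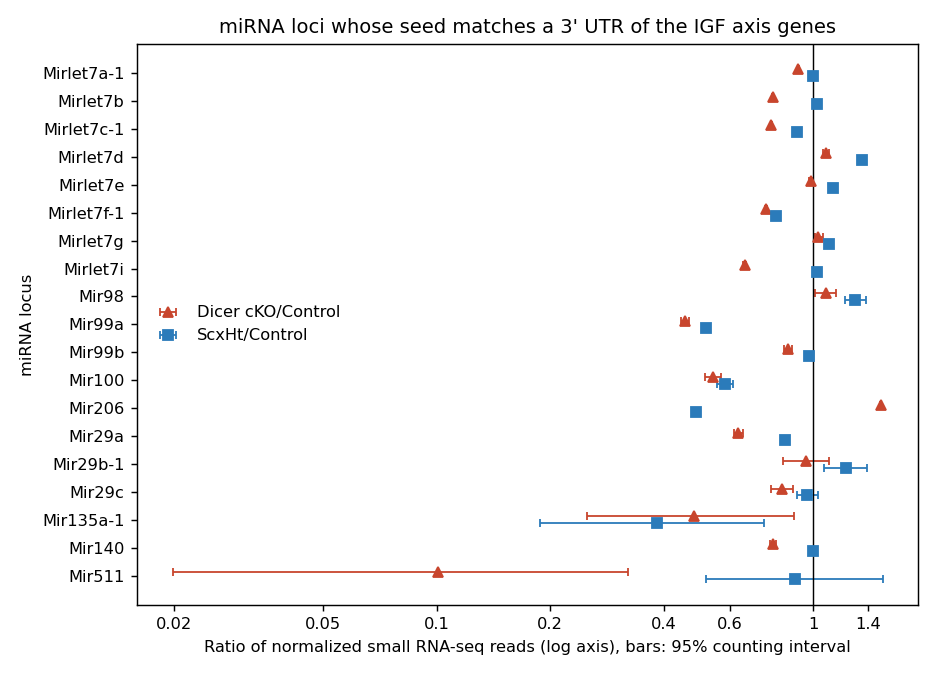
Ratio of normalized small RNA-seq reads (log axis) at loci of miRNAs whose seed has a match in a 3' UTR of the 8 genes (of miRNAs with several loci, the first), for Dicer cKO/Control (triangles) and ScxHt/Control (squares), with 95% counting intervals as bars. Mir99a and Mir100 lie left of 0.60 in both comparisons, Mir206 lies on opposite sides of 1, and Mir511 is lowest in Dicer cKO/Control.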

How the data were processed

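Total RNA of Achilles tendon (ISOGEN and Direct-zol) was sequenced as 3 RNA-seq and 3 small RNA-seq libraries. The authors removed adaptors, mapped reads to GRCm38 (mm10) with TopHat and Bowtie2 before counting reads per gene with HTSeq, and the raw counts were deposited. The deposited RPKM values had been computed by the authors from count, gene length and library total. They were used here to compare genes within a library. RPKM levels, ranks and the summed binding protein RPKM were also set side by side between libraries. Those values are scaled by library total and not by the DESeq2 size factors behind the ratios. Versions, annotation release and strand setting are not given in the sources used here. Reads per library and intervals are given in the text above.

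Of 54189 lines in the RNA-seq table, 463 exact repeats of an earlier line were dropped. Size factors came from DESeq2 1.42.0 (R 4.3.3) on the 2 libraries compared, and ratios and intervals from Python 3.11.15 (scipy 1.17.1, pandas 2.3.3, numpy 2.4.6, with matplotlib 3.10.9 for the figures). Seed matches were searched on the coding strand of the longest GENCODE vM21 3' UTR, and 1 match is not reported here. The procedure was tested on simulated data.

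The members and lists were chosen with earlier results of these data known. Named besides the 8 members were pathway genes past a limit in any comparison, Dicer1 and Scx as the label check, defining markers, and the 2 genes nearest to each member. Igf2r, Insr, Igfals, Igfbp1, Igfbpl1, Pappa, Htra1 and Ghr were named by their role in the pathway, and Cish, Foxo1 and Foxo3 after their values were seen. Reads that fit several miRNA loci may be counted at each. Alternatives were total counts, edgeR 4.0.16 TMM scaling, total counts after removal of features above 1% of a library, size factors from all 3 libraries together, minimum baseMeans of 10, 200 or none, a requirement that the whole interval pass the limit, limits of 2 and 0.5, and a pseudocount of 1.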

Additional observations from a re-analysis of the deposited data

How the results depend on the processing

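Of 120 member ratios recomputed under 5 alternatives of scaling or pseudocount, 0 changed direction, 1 changed its side of a limit (Igf1 in ScxHt/Control with total counts) and 13 moved beyond their counting interval, by at most 1.08-fold. Total counts shifted every log2 ratio by 0.06 in Dicer cKO/Control, 0.11 in ScxHt/Control and -0.06 in Dicer cKO/ScxHt. With total counts, 2 members were higher in ScxHt/Control, 1 pathway gene was higher in Dicer cKO/Control (also without features above 1% of a library) and 5 were lower in Dicer cKO/ScxHt. At a minimum baseMean of 200, which removed Igfbp2, 0 members were higher in Dicer cKO/Control and 0 in ScxHt/Control, 0 pathway genes were higher and 1 was lower in ScxHt/Control, and 1 was lower in Dicer cKO/ScxHt. With no minimum, 2 pathway genes were higher in ScxHt/Control. At limits of 2 and 0.5, 1 member was lower in Dicer cKO/Control, 1 pathway gene was lower in ScxHt/Control, and 1 was higher and 1 lower in Dicer cKO/ScxHt. Members lower in Dicer cKO/ScxHt went from 4 to 3 at limits of 2 and 0.5 and with the whole interval past the limit. With the whole interval past the limit, 1 pathway gene was lower in ScxHt/Control and 1 in Dicer cKO/ScxHt. Without division by length, Igfbp5 held 55.2% (54.6 to 55.7) of the Igfbp2 to Igfbp7 counts in the Control, 50.5% (50 to 51) in the ScxHt and 40.5% (39.8 to 41.2) in the Dicer cKO library. No paired analysis was possible because each genotype had 1 library. Pathway genes lower in Dicer cKO/Control went from 3 to 2 with the whole interval past the limit and at a minimum of 200, and those lower in ScxHt/Control went from 3 to 2 with total counts. Low counts widened the intervals of Igfbp2, Stc1, Mir135a-1 and Mir511, and differences between mice of a genotype were not measured.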
